A study of Mus musculus with 9 samples.

Results

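The genes described here are those of glycolysis, of its regulation and of glucose and lactate transport, in heart muscle cells differentiated from mouse embryonic stem cells. They were taken from a fixed list of 32 genes, and each was read from the brightest probe set that the platform annotation pairs with that gene alone. Of the 32 genes, 29 were measured in this way among 18194 genes in all, while Gpi1, Eno1 and Pfkfb1 had no such probe set and are not analysed here. The study asked how mature stem cell derived cardiomyocytes become in culture. Cultures of 3 ages were measured, 10, 20 and 30 days after differentiation began, on 3 arrays per age. All cells came from the synp line, derived from R1 embryonic stem cells of 129X1 x 129S1 background, and carried PAC, which gives resistance to puromycin, driven by the Ncx1 promoter, that of a sodium-calcium exchanger gene. All groups received activin A, BMP4, VEGF, bFGF and FGF10 to drive differentiation and puromycin from day 7. As labelled the groups differ in age, but time under puromycin grows with age, so age and length of selection cannot be told apart. The selection was meant to remove other cells, but it keeps any cell that uses the Ncx1 promoter. Whether replicates were separate differentiations is not stated in the labels, so a p-value reflects only how far these samples varied, and that variation may be technical. Each value is a log2 signal, and 1 unit is a 2-fold difference in signal. Only 9 arrays limit the precision. In RNA from a whole culture, fewer cells of a type and less RNA per cell cannot be told apart.

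Glycolysis splits glucose into pyruvate in the cytosol, and most of its steps are served by several isoforms that differ between tissues. The fetal heart relies largely on glucose and lactate, whereas the adult heart draws most of its energy from fatty acids and switches to the muscle isoforms of several glycolytic enzymes. Many glycolytic genes are also targets of the hypoxia-inducible factors, which bind DNA at a short core motif. At the end of the pathway, pyruvate dehydrogenase turns pyruvate into acetyl-CoA in the mitochondrion, and lactate dehydrogenase turns it into lactate, which monocarboxylate transporters move across the membrane.

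The upstream sequences of 4 genes are shown because their isoform pairs, Pgam2 with Pgam1 and Slc16a3 with Slc16a1, shifted against each other over the 3 ages in the tests below. That of Ldha is shown because, of the windows of the listed genes, it holds the core motif ACGTG most often. Each is the 250 bases before the annotated start, from RefSeq on build GRCm38.p6, written 5′ to 3′ in the direction of transcription. Capitals mark ACGTG or its reverse complement CACGT, and where both overlap as CACGTG the capitals run through both.
Pgam2, chr11:5803797-5804046, minus strand: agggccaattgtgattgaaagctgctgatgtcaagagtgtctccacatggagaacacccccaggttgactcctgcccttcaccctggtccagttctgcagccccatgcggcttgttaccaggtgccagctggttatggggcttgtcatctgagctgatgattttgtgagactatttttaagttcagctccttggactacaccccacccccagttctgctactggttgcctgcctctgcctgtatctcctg
Pgam1, chr19:41911621-41911870, plus strand: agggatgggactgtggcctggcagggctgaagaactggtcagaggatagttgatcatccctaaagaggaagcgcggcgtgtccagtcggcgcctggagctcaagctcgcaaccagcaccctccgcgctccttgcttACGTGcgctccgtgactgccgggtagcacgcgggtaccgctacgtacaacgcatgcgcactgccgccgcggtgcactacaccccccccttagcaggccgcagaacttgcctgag
Slc16a3, chr11:120948817-120949066, plus strand: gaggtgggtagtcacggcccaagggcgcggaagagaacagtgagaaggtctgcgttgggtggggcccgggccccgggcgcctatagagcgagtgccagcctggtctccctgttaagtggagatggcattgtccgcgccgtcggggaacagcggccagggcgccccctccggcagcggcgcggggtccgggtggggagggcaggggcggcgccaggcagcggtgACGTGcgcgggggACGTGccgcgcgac
Slc16a1, chr3:104638414-104638663, plus strand: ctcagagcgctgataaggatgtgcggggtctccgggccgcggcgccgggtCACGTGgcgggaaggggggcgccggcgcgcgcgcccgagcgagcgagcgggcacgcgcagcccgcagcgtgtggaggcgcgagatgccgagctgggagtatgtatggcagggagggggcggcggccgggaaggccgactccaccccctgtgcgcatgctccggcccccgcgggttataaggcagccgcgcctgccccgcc
Ldha, chr7:46845554-46845803, plus strand: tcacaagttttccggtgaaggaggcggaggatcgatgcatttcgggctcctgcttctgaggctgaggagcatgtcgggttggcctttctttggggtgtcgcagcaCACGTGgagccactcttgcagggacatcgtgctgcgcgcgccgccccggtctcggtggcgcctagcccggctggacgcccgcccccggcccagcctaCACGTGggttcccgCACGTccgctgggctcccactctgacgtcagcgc
RefSeq promoter windows were found for 29 of the 32 listed genes, 48 windows in all, because some genes have several starts and some windows overlap. These are not the 29 measured genes. They include Gpi1, Eno1 and Pfkfb1, which were not measured and whose windows all lacked ACGTG. Slc2a3, Slc2a4 and Pdp1 were measured but had no window. The shares of the 48 windows are therefore not those of the measured genes of the list. ACGTG, searched on both strands, was present in 18 of the 48 windows (37.5%) and in 16.6% of all 32851 windows, or 19.5% of the 18110 windows of measured genes. The related core GCGTG was in 50.0% of the 48 windows, in 28.2% of all windows and in 38.0% of those of measured genes. CACGTG, which contains ACGTG on both strands, was in 12.5% of the 48 windows, in 6.02% of all and in 7.38% of those of measured genes. A match describes these letters in this window and is not a site of binding.

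The labelled cell type was checked against its markers. Troponin T gene Tnnt2 had mean signals of 13.42, 13.14 and 13.54 at day 10, 20 and 30, and none of the 8 cardiomyocyte markers passed the test between day 30 and day 10 (limma, Benjamini-Hochberg adjusted over all genes). The log2 of their summed signal was 15.66 to 16.24 at day 10, 15.93 to 16.18 at day 20 and 16.09 to 16.13 at day 30. Of 8 fibroblast and matrix markers, 7 rose at both later ages, and the log2 of their summed signal was 11.00 to 12.88 at day 10, 14.92 to 15.89 at day 20 and 16.12 to 16.27 at day 30. These markers moved with age, and their part in the results below was not tested. Of all genes, 7.30% rose at day 20 against day 10, and 11.2% rose and 9.92% fell at day 30 against day 10. Of the other marker lists at day 30 against day 10, those of pluripotent cells had 3 falls among 4 genes. Endoderm and epithelium had 1 rise and 2 falls among 4, and smooth muscle 1 and 2 among 5. Endothelium and neural cells had 1 fall each among 4, blood none of 3, and skeletal muscle 1 rise of 4, which was Ckm, a creatine kinase gene that the heart also uses, whereas Myog, Myod1 and Myh1 stayed between differences of -0.16 and -0.09 and did not pass. The median signal of the arrays lay within 0.07 of each other, and arrays of the same age correlated at no less than 0.965 (day 10), 0.987 (day 20) and 0.986 (day 30).

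**Figure D1:**
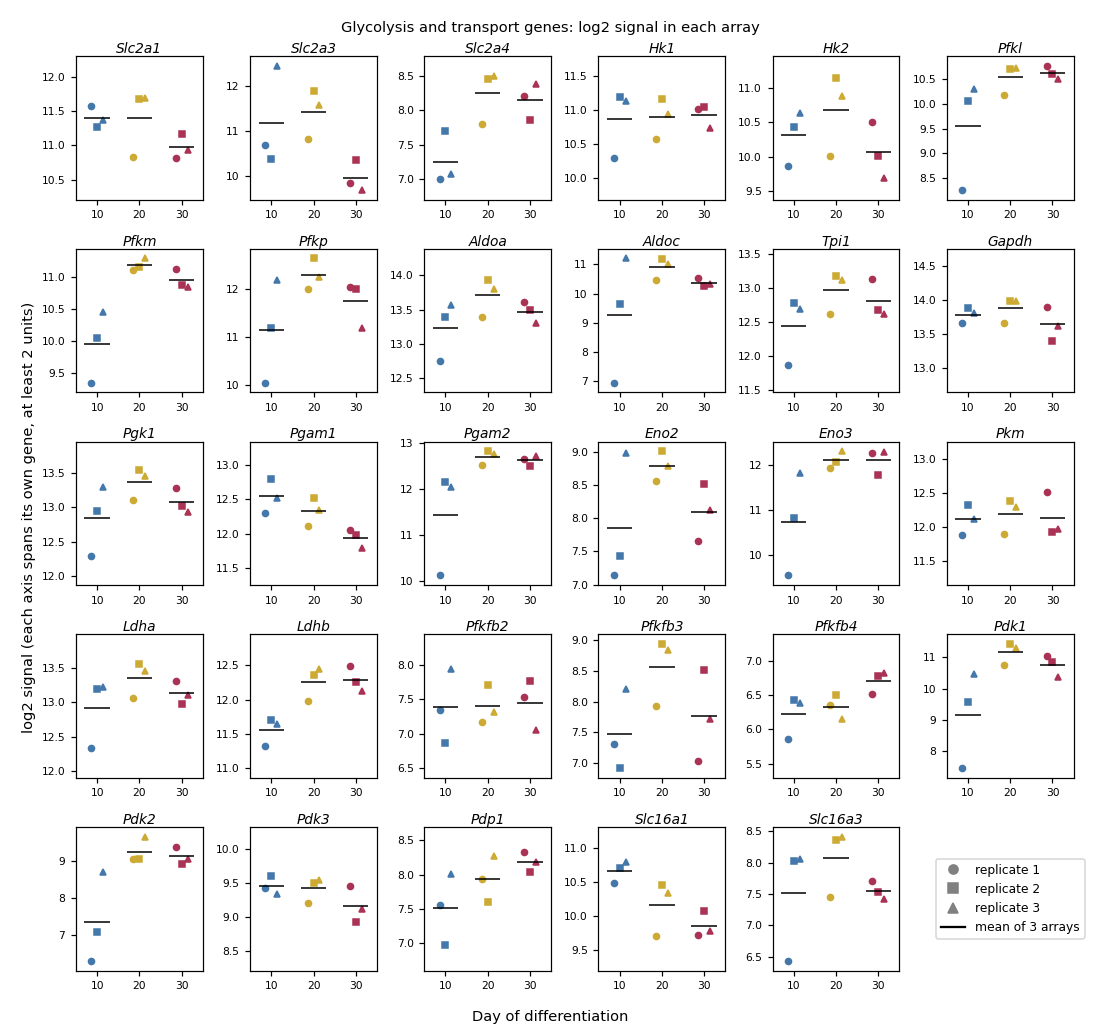
Log2 signal of the 29 measured genes in each of the 9 arrays, against day of differentiation. Each point is an array, its shape the replicate number, and the line is the mean of 3 arrays. In many panels day 10 replicate 1 is the lowest point, and the day 10 arrays are spread more widely than those of day 20 and day 30.

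At day 30 against day 10, 6 of the 29 genes passed the test, of which 4 rose and 2 fell. The 4 that rose were Slc2a4, Pfkm, Ldhb and Pdk2, which encode the insulin-responsive glucose transporter, the muscle form of phosphofructokinase, the heart form of lactate dehydrogenase and a pyruvate dehydrogenase kinase. The 2 that fell were Pgam1 and Slc16a1, which encode the general form of phosphoglycerate mutase and the monocarboxylate transporter MCT1. The share of 20.7% was close to the 21.1% of all genes called in the same comparison. In single directions, 13.8% of the genes rose and 6.90% fell, against 11.2% and 9.92% of all genes. These shares lie near those of all genes, so the counts are not read as particular to the list. All genes include many dim ones, which were called less often. Among only the genes above the median level, 21.4% of those listed passed at day 30 against day 10, against 32.4% of all. For day 20 against day 10 the same filter gave 14.3%, against 23.1% of all. At day 20 against day 10, 4 of 29 passed (13.8%, against 14.0% of all genes), and all of them were the same 4 that rose by day 30 (13.8% higher, against 7.30% of all genes higher and 6.69% lower). These comparisons share the day 10 arrays. The F test over all 3 ages called 3 of 29 (Slc2a4, Pfkm and Ldhb, 10.3%), against 17.5% of all genes. The count rests on single arrays. At day 30 against day 10, the list had 0 calls without day 30 replicate 1, where 14.3% of all genes were called, and 9 (31.0%) without day 10 replicate 3, where 27.9% of all genes were. At day 20 against day 10, it had 0 calls without day 20 replicate 2 or 3, where 5.57% and 7.04% of all genes were called, and 9 (31.0%) without day 10 replicate 3, against 25.5% of all genes. Fitting only the days compared left 0 calls at day 20, against 7.29% of all genes, and 2 at day 30 (Ldhb and Slc16a1), against 14.6% of all genes.

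Among glucose transporters, Slc2a4 rose and the others did not pass. Slc2a4 (gene 20528) encodes GLUT4, which insulin moves to the membrane of heart and muscle cells. Its log2 signal was 6.99, 7.69 and 7.06 in the day 10 arrays, 7.80, 8.46 and 8.50 at day 20, and 8.22, 7.86 and 8.38 at day 30. All 6 later arrays lay above all 3 day 10 arrays. The difference was 0.90 at day 30 against day 10 (SE 0.26, 1.87-fold, limma adjusted p = 0.0397) and 1.0 at day 20 against day 10 (adjusted p = 0.0378). Both calls were lost without each of 6 arrays, namely day 10 replicates 1 and 3, day 20 replicates 2 and 3, and day 30 replicates 1 and 3 (highest adjusted p = 0.122 and 0.127). Both were also lost in the fit of only the days compared (adjusted p = 0.0540 at day 30 and 0.0811 at day 20) and with the replicate number as a block (0.0536 and 0.0510). The second probe set of Slc2a4 gave 0.81 and 1.08 for the same differences, and for the mean of both probe sets neither call held (adjusted p = 0.0771 and 0.0549). With array weights the day 30 difference was 0.67 and did not pass (adjusted p = 0.0563).

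Slc2a1 encodes GLUT1, the basal glucose transporter of many cells, including fetal cardiomyocytes. Its signal was 11.58, 11.26 and 11.37 at day 10, 10.83, 11.68 and 11.69 at day 20, and 10.82, 11.17 and 10.93 at day 30. The day 30 arrays lay below all day 10 arrays, but the difference of -0.43 did not pass (95% interval -0.96 to 0.11, adjusted p = 0.240). Slc2a3 encodes GLUT3, a high-affinity transporter best known from neurons and embryos. It had 10.70, 10.37 and 12.45 at day 10, 10.83, 11.89 and 11.57 at day 20, and 9.85, 10.35 and 9.69 at day 30. Day 10 replicate 3 was the highest of the 9 arrays, and the day 30 arrays lay below those of both other ages. Its difference of -1.21 at day 30 against day 10 did not pass (95% interval -2.41 to -0.0043, adjusted p = 0.145), nor did that of -1.47 at day 30 against day 20 (adjusted p = 0.352). All 4 of its probe sets had a lower mean at day 30 than at day 10, by 1.21 to 1.85.

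The hexokinase genes, whose enzymes trap glucose in the cell, did not pass. Hk1, the form found in most tissues, averaged 10.87 ± 0.50, 10.89 ± 0.29 and 10.93 ± 0.17 at day 10, 20 and 30 (SD, n = 3). The 95% interval of its day 30 minus day 10 difference ran from -0.51 to 0.64. Hk2, the form of insulin-responsive muscle, averaged 10.31 ± 0.40, 10.68 ± 0.60 and 10.07 ± 0.41 (SD, n = 3), with an interval of -1.02 to 0.54.

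Phosphofructokinase commits sugar to glycolysis and has muscle, liver and platelet subunits encoded by Pfkm, Pfkl and Pfkp. Pfkm (gene 18642) rose. Its signal was 9.35, 10.05 and 10.47 at day 10, 11.12, 11.16 and 11.30 at day 20, and 11.14, 10.88 and 10.85 at day 30. The 6 later arrays lay close together and above all day 10 arrays. The difference was 1.24 at day 20 against day 10 (SE 0.25, limma adjusted p = 0.0165) and 1.0 at day 30 against day 10 (SE 0.25, 2.0-fold, adjusted p = 0.0243). The day 20 call was lost without day 20 replicate 2 or 3 (adjusted p up to 0.0589). The day 30 call was lost without day 10 replicate 2 or without each day 30 array (adjusted p up to 0.0814). Neither held in the fit of only the days compared (adjusted p = 0.0542 at day 20 and 0.0693 at day 30).

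Pfkl had 8.27, 10.06 and 10.29 at day 10, 10.18, 10.69 and 10.72 at day 20, and 10.76, 10.59 and 10.49 at day 30. Its day 10 replicate 1 was far below the other 8 arrays, and the difference of 1.07 at day 30 against day 10 did not pass (95% interval -0.01 to 2.15, adjusted p = 0.151). Pfkp had 10.04, 11.18 and 12.20 at day 10, 12.01, 12.65 and 12.27 at day 20, and 12.05, 12.01 and 11.18 at day 30. Its day 10 arrays spanned 2.16, which is more than the 0.61 by which the means of day 30 and day 10 differed (adjusted p = 0.447). The 3 probe sets of Pfkp gave day 30 minus day 10 differences of 0.02 to 0.61.

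Aldolase cleaves fructose 1,6-bisphosphate, with Aldoa the muscle form and Aldoc the form best known from brain. Aldoa had 12.75, 13.39 and 13.57 at day 10, 13.39, 13.93 and 13.81 at day 20, and 13.61, 13.50 and 13.31 at day 30. Aldoc had 6.95, 9.63 and 11.20 at day 10, 10.48, 11.20 and 11.02 at day 20, and 10.55, 10.25 and 10.32 at day 30. The 3 day 10 arrays spanned 4.25 in Aldoc, the widest range at that age among the 29 genes, while the day 30 arrays spanned 0.29. Neither passed at day 30 against day 10: the differences were 0.24 for Aldoa (95% interval -0.29 to 0.76) and 1.11 for Aldoc (-0.92 to 3.15). Both came close to 0 without day 10 replicate 1, at -0.0078 for Aldoa and -0.040 for Aldoc.

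The enzymes of the middle steps, triose phosphate isomerase (Tpi1), glyceraldehyde phosphate dehydrogenase (Gapdh) and phosphoglycerate kinase (Pgk1), did not pass at any comparison. Tpi1 averaged 12.44 ± 0.50, 12.96 ± 0.31 and 12.80 ± 0.28, and Pgk1 12.85 ± 0.52, 13.37 ± 0.23 and 13.08 ± 0.18 at day 10, 20 and 30 (SD, n = 3). Gapdh averaged 13.78 ± 0.11, 13.88 ± 0.18 and 13.64 ± 0.25 (SD, n = 3). It was read from an array control probe set at the 5 prime end of its transcript, and its 95% interval for day 30 minus day 10 was -0.48 to 0.20. Several glycolytic genes, Gapdh among them, have many processed pseudogenes in the mouse, so their probe sets may also read related sequences. The probe sets of Aldoa all end in x_at, a suffix for probes shared with other transcripts.

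Phosphoglycerate mutase has a general subunit, encoded by Pgam1, and a muscle subunit, encoded by Pgam2. Pgam1 (gene 18648) fell by day 30. Its signal was 12.31, 12.80 and 12.53 at day 10, 12.11, 12.53 and 12.35 at day 20, and 12.05, 11.98 and 11.79 at day 30. All day 30 arrays lay below all others, and the difference from day 10 was -0.61 (SE 0.16, 0.657-fold, limma adjusted p = 0.0290). The call was lost without day 10 replicate 2 or without each day 30 array (adjusted p up to 0.0944), and in the fit of only the days compared (0.0511). Pgam2 had 10.11, 12.15 and 12.04 at day 10, 12.53, 12.83 and 12.78 at day 20, and 12.67, 12.51 and 12.73 at day 30. All 6 later arrays lay above all day 10 arrays, yet the difference of 1.20 at day 30 against day 10 did not pass (SE 0.47, adjusted p = 0.114). Without day 10 replicate 1, the lowest array, it was 0.54 and passed (adjusted p = 0.0269).

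Enolase makes phosphoenolpyruvate. Eno3 encodes its muscle subunit and had 9.54, 10.82 and 11.83 at day 10, 11.93, 12.07 and 12.31 at day 20, and 12.26, 11.78 and 12.28 at day 30. Day 10 replicate 3 reached the level of the later arrays. The difference of 1.38 at day 30 against day 10 did not pass (95% interval 0.26 to 2.496, adjusted p = 0.0833), and was 1.93 without day 10 replicate 3, where it passed (adjusted p = 0.00658). Eno2, the neuronal enolase gene, had 7.14, 7.43 and 8.99 at day 10, 8.57, 9.02 and 8.80 at day 20, and 7.65, 8.52 and 8.12 at day 30. All day 30 arrays lay below all day 20 arrays, but the difference of -0.70 did not pass (adjusted p = 0.661). Pkm, the pyruvate kinase gene, averaged 12.11 ± 0.22, 12.19 ± 0.26 and 12.14 ± 0.33 (SD, n = 3), with a 95% interval of -0.44 to 0.49 for day 30 minus day 10. Its splice forms M1 and M2 were not told apart by this probe set's single value.

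Lactate dehydrogenase has subunits encoded by Ldha, which predominates in skeletal muscle, and Ldhb, which predominates in the heart. Ldhb (gene 16832) rose. Its signal was 11.31, 11.71 and 11.64 at day 10, 11.98, 12.36 and 12.44 at day 20, and 12.50, 12.25 and 12.12 at day 30, with no overlap between day 10 and the later ages. The difference was 0.71 at day 20 against day 10 (SE 0.17, limma adjusted p = 0.0278) and 0.74 at day 30 against day 10 (SE 0.17, 1.67-fold, adjusted p = 0.0163). Its 4 probe sets gave 0.73 to 0.82 at day 30. The day 30 call was lost without day 30 replicate 1 (adjusted p = 0.0581), and the day 20 call on omitting replicate 1 of day 10, or replicate 2 or 3 of day 20 (adjusted p up to 0.0991). In the fit of only the days compared the day 20 call was lost too (adjusted p = 0.0626). Ldha had 12.33, 13.19 and 13.22 at day 10, 13.06, 13.56 and 13.46 at day 20, and 13.31, 12.97 and 13.11 at day 30. Its difference of 0.22 at day 30 did not pass (95% interval -0.35 to 0.79), and was -0.074 without day 10 replicate 1.

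The monocarboxylate transporters carry lactate and pyruvate. Slc16a1 (gene 20501) encodes MCT1, which serves uptake in the heart, and it fell. Its signal was 10.48, 10.71 and 10.80 at day 10, 9.72, 10.45 and 10.33 at day 20, and 9.72, 10.08 and 9.78 at day 30. The later arrays all lay below the day 10 arrays. The difference was -0.80 at day 30 against day 10 (SE 0.20, 0.574-fold, limma adjusted p = 0.0253) and -0.50 at day 20 (adjusted p = 0.142). The day 30 call was lost on omitting replicate 2 of day 10, or replicate 1 or 3 of day 30 (adjusted p up to 0.0844). A second, much dimmer probe set gave -0.19, and the call did not hold for the mean of both (-0.50, adjusted p = 0.0655). Slc16a3 encodes MCT4, an exporter of lactate from glycolytic cells. It had 6.43, 8.03 and 8.07 at day 10, 7.45, 8.36 and 8.42 at day 20, and 7.70, 7.53 and 7.43 at day 30, with the day 30 arrays between the extremes of day 10 (95% interval -0.97 to 1.07 for day 30 minus day 10).

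The bifunctional enzymes of the Pfkfb family set the level of fructose 2,6-bisphosphate, which activates phosphofructokinase. None of the 3 measured passed. Pfkfb2, the heart form, averaged 7.38 ± 0.54, 7.40 ± 0.28 and 7.45 ± 0.37, and Pfkfb4 6.23 ± 0.32, 6.34 ± 0.18 and 6.71 ± 0.17 at day 10, 20 and 30 (SD, n = 3). All day 30 arrays of Pfkfb4 lay above all earlier ones, with a difference of 0.48 from day 10 (95% interval 0.07 to 0.88, adjusted p = 0.0926). Pfkfb3, an inducible form that favours glycolysis, had 7.31, 6.92 and 8.21 at day 10, 7.94, 8.94 and 8.84 at day 20, and 7.04, 8.52 and 7.72 at day 30. Its arrays overlapped between all ages.

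Pyruvate dehydrogenase is switched off by the kinases of the Pdk family and on by phosphatases such as that of Pdp1. Pdk2 (gene 18604), a kinase of many tissues including the heart, rose. Its signal was 6.30, 7.06 and 8.70 at day 10, 9.05, 9.03 and 9.65 at day 20, and 9.38, 8.92 and 9.04 at day 30. Day 10 replicate 3 lay just under the later arrays and the other 2 day 10 arrays far under them. The difference was 1.89 at day 20 against day 10 (SE 0.53, limma adjusted p = 0.0496) and 1.76 at day 30 against day 10 (SE 0.53, 3.39-fold, adjusted p = 0.0480). Both calls stood close to the threshold and were lost without each of the 8 arrays other than day 10 replicate 3 (adjusted p up to 0.147 and 0.136). They were also lost in the fit of only the days compared (adjusted p = 0.116 and 0.105), and the day 20 call with genes read as the mean of their probe sets (0.0519). Without day 10 replicate 3 the differences were 2.56 and 2.43.

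Pdk1, a kinase gene that hypoxia induces, had 7.46, 9.56 and 10.47 at day 10, 10.74, 11.43 and 11.31 at day 20, and 11.03, 10.84 and 10.37 at day 30. All day 20 arrays lay above all day 10 arrays, with a difference of 2.0 that did not pass (SE 0.66, adjusted p = 0.0829). At day 30 against day 10 it was 1.58 (adjusted p = 0.131). Both passed without day 10 replicate 3, at 2.65 and 2.23 (adjusted p = 0.0128 and 0.0218). The 3 brighter probe sets of Pdk1 gave 0.95 to 2.0 at day 20 and 0.62 to 1.58 at day 30 against day 10. Its dimmest probe set gave 0.26 and -0.087. In all of its probe sets but the brightest, the day 20 arrays overlapped those of day 10. Pdk3 averaged 9.46 ± 0.14, 9.42 ± 0.18 and 9.17 ± 0.27 (SD, n = 3) and did not pass. Pdp1 had 7.56, 6.96 and 8.01 at day 10, 7.94, 7.60 and 8.28 at day 20, and 8.33, 8.04 and 8.19 at day 30. Its difference of 0.68 at day 30 against day 10 did not pass (adjusted p = 0.114), but the day 30 arrays lay above all day 10 arrays and its second probe set gave 1.65. Without day 10 replicate 3 it was 0.93 and passed (adjusted p = 0.0240), as it did for the mean of both probe sets (1.16), with array weights (1.07) and with the replicate block (0.68, adjusted p = 0.0404).

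**Figure D2:**
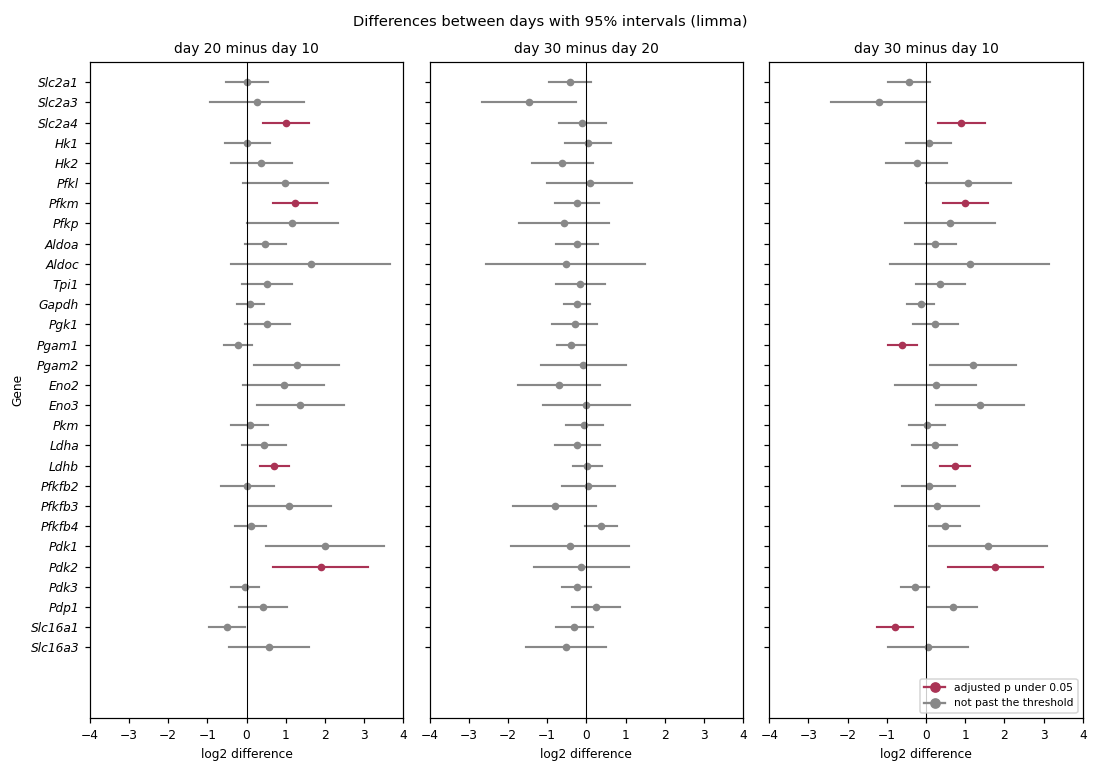
Log2 differences of the 29 genes at day 20 minus day 10, day 30 minus day 20 and day 30 minus day 10, with 95% intervals from limma. Coloured genes passed an adjusted p of 0.05 over all genes: 4 in the left panel, 0 in the middle panel and 6 in the right panel.

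Between day 20 and day 30 no gene of the list passed (limma), against 0.335% of all genes (0.291% higher and 0.0440% lower). At an unadjusted p under 0.05 there were 2 of 29, Slc2a3 and Pgam1, against 10.9% of all genes. The later difference was below 0 in 22 of 29 genes and in 48.9% of all genes, with a median of -0.24 against 0.00. Hk2, Aldoa, Tpi1, Gapdh, Pgk1, Ldha and Slc16a3 were among those below 0, each with a 95% interval that includes 0. Leaving out single arrays moved the median between -0.35 (day 20 replicate 1 omitted) and -0.15 (day 30 replicate 2 omitted). The earlier difference, day 20 against day 10, was above 0 in 25 of 29 genes and in 44.3% of all genes, with a median of 0.52 against -0.03. The day 20 arrays lay wholly above those of day 10 in 7 of 29 genes, against 14.5% of all genes, and wholly below in 1, against 17.3%. Omitting day 10 replicate 1 left a median of 0.23, and omitting day 10 replicate 3 left 0.75. The change of pace, that is the later difference minus the earlier one, passed in no gene of the list (limma, 0.478% of all genes called, 0.154% higher and 0.324% lower). At an unadjusted p under 0.05 there were 4 of 29, namely Slc2a4, Pfkm, Ldhb and Pfkfb3, against 15.5% of all genes. Both intervals share the day 20 arrays. Without day 10 replicate 3, 4 genes passed, all with a lower later change: Slc2a3, Pfkm, Eno2 and Pdk2, where 9.48% of all genes were called.

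At day 30 against day 10 the difference was above 0 in 22 of 29 genes and in 45.7% of all genes, with a median of 0.25 against -0.03. With day 10 replicate 1 omitted the median was -0.0078, and with day 10 replicate 3 omitted it was 0.49. The day 30 arrays lay wholly above those of day 10 in 8 of 29 genes, against 17.4% of all genes, and wholly below in 4, against 18.8%. The shares of all genes given for these directions and separations, at each pair of ages, include many dim genes. No comparison with genes of like level was made for them.

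The within-array difference between isoforms was compared over the ages for 9 pairs, by permuting arrays between the ages exactly, over all 280 splits, with the one-way F statistic and adjustment over the 9 pairs. Only the change of a difference over age is read, because levels of unlike probe sets cannot be compared. In 3 pairs the difference shifted. Each exact p covers the 3 ages together and is not a test of day 30 against day 10 alone. Pgam2 minus Pgam1 was -2.19, -0.65 and -0.48 at day 10, 0.42, 0.30 and 0.43 at day 20, and 0.62, 0.53 and 0.94 at day 30. The muscle subunit gene thus gained on the general one by 1.80 at day 30 against day 10, in all 6 later arrays (exact p = 0.00357, the smallest possible, adjusted p = 0.0321). Slc2a4 minus Slc2a1 was -4.59, -3.57 and -4.30 at day 10, -3.03, -3.23 and -3.19 at day 20, and -2.60, -3.31 and -2.56 at day 30. The insulin-responsive transporter gene gained 1.33 on the basal one (exact p = 0.0143, adjusted p = 0.0429). Slc16a3 minus Slc16a1 was -4.05, -2.68 and -2.73 at day 10, -2.26, -2.09 and -1.92 at day 20, and -2.02, -2.55 and -2.36 at day 30. The difference rose by 0.85 at day 30 against day 10 (exact p = 0.0107, adjusted p = 0.0429). At day 30 this was mostly the fall of the MCT1 gene, by 0.80, while the MCT4 gene itself differed by 0.05. At day 20 against day 10 the pair had shifted by 1.07, with the MCT4 gene 0.57 higher and the MCT1 gene 0.50 lower. Neither gene passed its own test at day 20 (limma).

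The other 6 pairs did not pass. Ldhb minus Ldha was -1.02, -1.48 and -1.58 at day 10, -1.08, -1.20 and -1.01 at day 20, and -0.81, -0.72 and -0.98 at day 30 (exact p = 0.05, adjusted p = 0.113). It passed without day 10 replicate 1 (difference 0.69, adjusted p = 0.0161). Aldoc minus Aldoa was -5.79, -3.76 and -2.38 at day 10, against differences between -2.74 and -3.24 in the later arrays (exact p = 0.346, adjusted p = 0.520). It passed without day 10 replicate 3, at 1.68 (adjusted p = 0.0161), and was -0.032 without day 10 replicate 1. For Hk2 minus Hk1 the adjusted exact p was 0.167, for Pfkm minus Pfkl and for Pfkp minus Pfkm 0.655, and for Pdk2 minus Pdk1 0.814. Leaving out 1 array of day 20 or day 30 ended each of the 3 calls, with adjusted exact p up to 0.129, 0.217 and 0.225 for the Pgam, Slc2a and Slc16a pairs. Leaving out day 10 replicate 1 ended the call of the Slc16a pair, with a difference of 0.40 (adjusted exact p = 0.141).

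**Figure D3:**
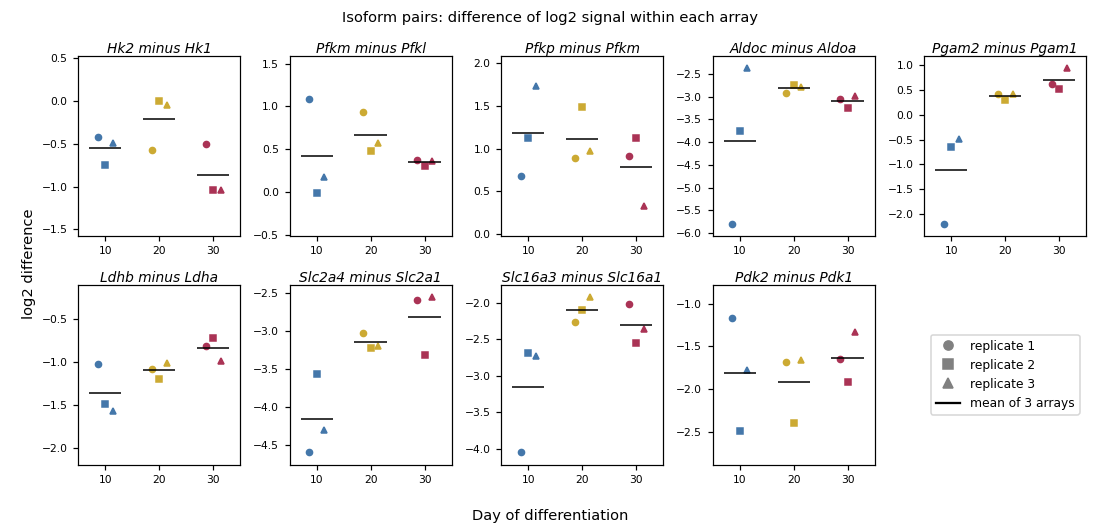
Within-array difference of log2 signal between the isoforms of 9 pairs, against day of differentiation. Each point is an array and the line is the mean of 3. Pgam2 minus Pgam1, Slc2a4 minus Slc2a1 and Slc16a3 minus Slc16a1 are the pairs whose day 10 arrays lie below all later arrays.

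Arrays of an age were spread widely in these genes, above all at day 10. Over the 29 genes, the SD among 3 arrays had a median of 0.52 (day 10), 0.29 (day 20) and 0.19 (day 30), against 0.19, 0.13 and 0.14 over all genes. All of the 29 genes but Pfkfb4 lay above the median level of all genes, which include many dim ones. No comparison with genes of like level was made, so this spread is not read as particular to the list. At day 10 the arrays spanned more than 1 unit in 15 of 29 genes and in 13.7% of all genes, and at day 30 in 1 (Pfkfb3) and in 4.74%. Day 10 replicate 1 was the lowest of its age in 23 of 29 genes, against 36.2% of all genes, and replicate 3 was the highest in 18, against 35.8%. Day 20 replicate 1 was the lowest of its age in 26 of 29, against 41.6% of all genes. At day 30, replicate 1 was the highest in 18 and replicate 3 the lowest in 14, against 28.6% and 28.5%. The median of the 29 genes relative to the mean of 9 arrays was -0.73, -0.15 and 0.13 in the day 10 arrays, -0.07, 0.44 and 0.43 at day 20, and 0.18, 0.08 and -0.15 at day 30. Day 10 replicate 3 thus lay within the range of the day 30 arrays, replicate 2 at its lower edge and replicate 1 below it.

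Other measures also differed between the arrays, not all in the same order. The poly-A spikes, which are controls put into the RNA ahead of labelling, averaged a log2 signal of 6.23, 5.24 and 5.09 in the day 10 arrays, and of 5.91 to 6.69 in the later 6, so that day 10 replicate 1 lay with the later arrays here. Hypoxia genes outside glycolysis, 12 in number, had medians relative to the 9-array mean of -1.81, -1.28 and -0.46 at day 10, 0.06, 1.03 and 0.64 at day 20, and 0.57, 0.60 and 0.12 at day 30. At day 20 against day 10, 7 of them rose, and at day 30 6 of them rose, among them Car9, a carbonic anhydrase gene, by 5.26, Egln3, an oxygen-sensing hydroxylase gene, by 4.31, and the collagen hydroxylase genes P4ha2 by 1.95 and P4ha1 by 1.34 (limma adjusted p = 0.000484, 0.00351, 0.00337 and 0.0080). Egln3 measured 5.51, 6.55 and 8.31 in the day 10 arrays, the same order of arrays as Aldoc, Pdk1 and Pdk2. Of 9 cell cycle genes, 5 fell by day 30, against 9.92% of all genes, among them the replication gene Mcm2 by 2.23 (limma adjusted p = 0.0105). Their median was 1.49, 1.90 and -0.24 in the day 10 arrays, so that replicate 3 stood apart here too, on the side of the day 30 arrays (-1.58, -1.10 and -0.33). The cardiomyocyte markers had medians of -0.37, -0.10 and 0.30 in the day 10 arrays. The part of these measures in the differences of the glycolytic genes was not tested.

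**Figure D4:**
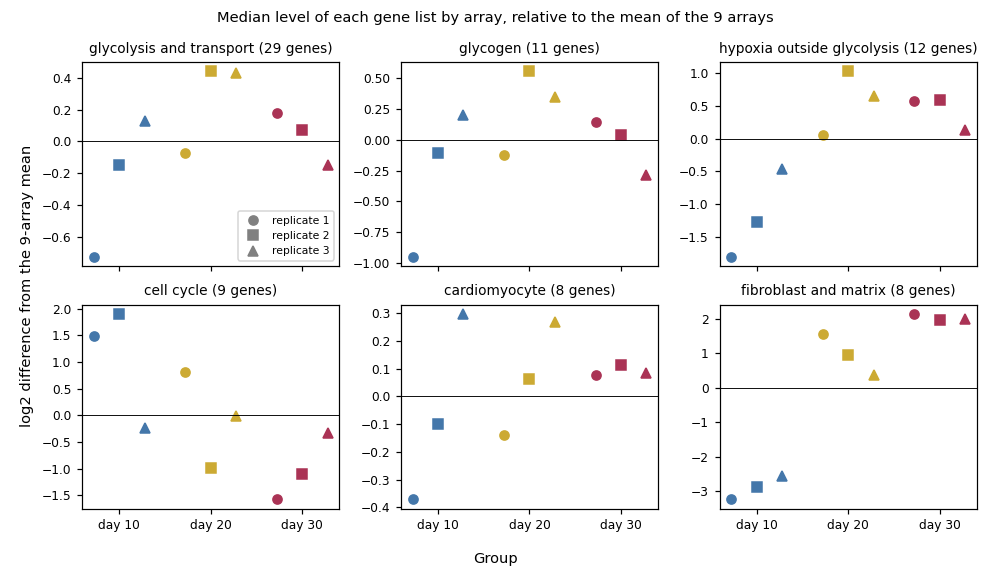
Median level of 6 gene lists in each array, in log2 units relative to the mean of the 9 arrays. Each point is an array, coloured by age and shaped by replicate number. Day 10 replicate 1 is the lowest array for the glycolysis, glycogen, hypoxia, cardiomyocyte and matrix lists, while in the cell cycle list day 10 replicate 3 lies near the later arrays.

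Genes next to the pathway were described from lists of other glucose handling, glycogen, the pentose phosphate pathway and regulators. Of 20 other genes of glucose handling, 4 rose and 1 fell at day 30 against day 10, with a median of 0.02. Those with the lowest adjusted p were Slc2a10, a further glucose transporter family gene, which rose by 1.81 (SE 0.11, limma adjusted p = 9.4e-05), Ldhd, a mitochondrial D-lactate dehydrogenase gene, by 0.75, and Mpc1, a subunit gene of the mitochondrial pyruvate carrier, by 1.83. Emb, which encodes embigin, a partner of monocarboxylate transporters, fell by 1.33 (adjusted p = 0.0290). Of 11 glycogen genes, 2 rose and 1 fell: the phosphorylase kinase gene Phkg1 rose by 2.20 and the brain glycogen phosphorylase gene Pygb by 1.18, while Gyg, the gene of the glycogen primer glycogenin, fell by 1.54. The glycogen list had medians of -0.95, -0.11 and 0.20 in the day 10 arrays, in the same order as the glycolytic genes. Of 6 pentose phosphate genes, 1 fell, the transketolase gene Tkt by 0.67, and 5 of 6 had a difference below 0, with a median of -0.42. Of 13 regulators, 3 rose and 1 fell: Mef2a, a muscle transcription factor gene with GLUT4 among its known targets, rose by 1.30, Klf15 by 1.79 and Epas1, the gene of hypoxia-inducible factor 2 alpha, by 1.17, and the proto-oncogene Mycn fell by 3.97. Counts in these lists are to be read against the 21.1% of all genes called at day 30 against day 10.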

How the data were processed

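The deposited values are log2 signals, 1 per probe set and array, for 9 one-colour 3 prime expression arrays. Per the labels' protocols, cells were lysed in TRIzol and the RNA was biotin-labelled with a 3 prime in vitro transcription kit. How the arrays were normalized and which log base was taken is not given in the sources used here. Base 2 was inferred from the range of 2.77 to 14.5. Of 45101 probe sets, 34958 had 1 gene symbol, 932 had several and the rest none. Matching gene identifiers to the RefSeq gene table named 34754 of the first, with 0 changed symbols. Coordinates are given only for the RefSeq promoter windows.

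Genes were fitted together with limma 3.58.1 in R 4.3.3 (a mean per day over all 9 arrays, lmFit and eBayes, two-sided, Benjamini-Hochberg over 18194 genes, threshold 0.05). The procedure was run on simulated data in which genes varied independently and with the same spread at every age. It therefore does not cover the wider day 10 spread or the shifts of many genes in single arrays. Isoform pairs were tested by exact permutation of the arrays. The list and the comparison lists were chosen with earlier results of these data known. All 32 genes are named, and from each other list up to 4 in order of adjusted p at day 30 against day 10. Alternatives were other scalings, the mean of probe sets, a filter on dim genes, fits of only the days compared, array weights, the replicate number as a block and leaving out each array. Same-numbered arrays of different days correlated in their deviations from the day means by -0.15 to 0.43. Arrays with unlike numbers correlated by -0.46 to 0.24. The ranges overlap and cannot settle whether the numbers pair the samples, and the main fit used no pairing. Protein sequences and scanner files were not used here.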

Additional observations from a re-analysis of the deposited data

How the results depend on the processing

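Centring each array on its median and quantile normalization kept the direction and the side of the threshold of every result, and counts of calls within 1.5 times. With the mean of all probe sets, 2 genes of the list (6.90%) were called at day 20 against day 10, against 13.0% of all genes, with Slc2a4 and Pdk2 lost, and the pairs Slc2a4 minus Slc2a1 (1.41, adjusted exact p = 0.105) and Slc16a3 minus Slc16a1 (0.54, adjusted exact p = 0.220) no longer passed. Values that changed sign with it were Hk1 at -0.12, Pfkm minus Pfkl at 0.26, and the medians of the cardiomyocyte list at -0.032 and the skeletal muscle list at 0.063. With only the days compared, which cannot give the change of pace, the list had 0 calls at day 20 and 2 at day 30 against day 10, and all genes 1326 at day 20. With array weights it had 10 at day 20 against day 10 and 5 for the change of pace, and all genes had 5614 and 1912, with 311 at day 30 against day 20 and 6126 at day 30 against day 10. Hk1, Pkm and Slc16a3 were then at -0.16, -0.10 and -0.27. The filter on dim genes left 14 calls among all genes at day 30 against day 20. With the replicate number as a block, there were 33, though it is not known whether the numbers pair the samples. The list then had 3 calls at day 20, with Slc2a4 lost, and 6 at day 30 against day 10, with Slc2a4 lost and Pdp1 gained. The cause of these changes was not tested.

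Leaving out 1 array gave ranges as follows. Calls in the list were 0 to 9 at day 20 against day 10, 0 to 9 at day 30 against day 10 and 0 to 4 for the change of pace, and 0 throughout at day 30 against day 20. Calls among all genes were 1014 to 4647 at day 20 against day 10, 5 to 160 at day 30 against day 20, 2572 to 5084 at day 30 against day 10 and 0 to 1725 for the change of pace. At day 30 against day 10, the list's median was -0.0078 to 0.49, Hk1 -0.22 to 0.22, Aldoa -0.0078 to 0.41, Aldoc -0.040 to 2.08, Pgk1 -0.047 to 0.46, Eno2 -0.11 to 0.81, Pkm -0.16 to 0.14, Ldha -0.074 to 0.37, Pfkfb2 -0.19 to 0.34, Pfkfb3 -0.099 to 0.64 and Slc16a3 -0.49 to 0.33. Among pairs, Pgam2 minus Pgam1 was 1.26 to 2.12, Slc2a4 minus Slc2a1 1.11 to 1.62, Slc16a3 minus Slc16a1 0.40 to 1.09 and Ldhb minus Ldha 0.41 to 0.69. Pfkm minus Pfkl was -0.28 to 0.26, Aldoc minus Aldoa -0.032 to 1.68 and Pdk2 minus Pdk1 -0.16 to 0.50. The median of other glucose handling was -0.016 to 0.13 and of the blood markers -0.17 to 0.12.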
